A study of Mus musculus with 8 samples.

Results

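The Il10 gene of the mouse encodes interleukin 10, a cytokine that limits inflammation. Its IRF5 peaks were taken from every deposited peak list as those whose nearest gene is Il10 or whose annotation names the Il10 promoter. They numbered 47 of the 149659 peaks in 6 lists. Of these, 30 lay in the lists of the 4 single libraries (of 105945 peaks) and 17 in the 2 lists of whole conditions. All 47 had Il10 as their nearest gene, 8 of them were also in its Promoter class, and none entered by the Promoter class alone. Where they overlapped by at least 1 bp, the 30 library peaks formed 10 regions out of 55621 in the genome. The cells were macrophages grown from the bone marrow of wild-type mice. They were given PBS (the control) or were stimulated with CpG, a DNA rich in unmethylated CpG that the receptor TLR9 detects. The labels give neither its dose nor its duration. Each condition had 2 CUT&Tag libraries made with an antibody against IRF5. In this method the antibody guides a transposase to chromatin next to the bound protein, and the DNA released there is sequenced. The other 4 samples of the series, IgG libraries, have no list of their own and were not analysed here. By the names of the lists, peaks were called against IgG of the same condition, so the background follows the condition. Both control lists name the same IgG library, while the CpG lists name theirs differently, and whether these are 1 library or 2 is not clear. Nothing in the labels says whether libraries came from separate mice or cultures, and the spread between them may be technical.

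Interleukin 10 is released by macrophages after Toll-like receptor stimulation and acts back on them through its receptor and the transcription factor STAT3 to hold down inflammatory cytokines. IRF5 is an interferon regulatory factor activated downstream of the adaptor MyD88. It is known for driving inflammatory cytokine genes, and in human macrophages it has been described as a repressor of IL10. Transcription of Il10 is known to depend on its promoter and on elements before, within and after the gene, several of them described as sites of open chromatin in macrophages or T cells.

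The lists differ in length. The control lists hold 29226 (control 1) and 37315 (control 2) peaks, the CpG lists 13553 (CpG 1) and 25851 (CpG 2). No read totals are given, so depth is unknown. CpG 1 stands apart as the shortest. Promoter peaks were present at 9, 10, 6 and 9 of 11 macrophage markers in control 1, control 2, CpG 1 and CpG 2. They were present at 0 to 1 of the 2 to 4 markers each of B cells, T cells, neutrophils and dendritic cells, at 0 of 1 erythroid marker, and no mast cell or basophil marker was the nearest gene of a peak. All named genes had one at 23.9%, 28.4%, 10.3% and 22.1%, so counts over so few markers do not show that these cell types were absent. Some of these markers had peaks outside promoters, as 2, 2, 1 and 0 of 2 B cell markers and 2, 3, 1 and 2 of 3 T cell markers were nearest to a peak of any class. A promoter peak is not a measure of expression.

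Il10 had 9 peaks in each control library, 4 in CpG 1 and 8 in CpG 2. Few genes had as many peaks. Of 21295 genes named in the files, 1.39% were the nearest gene of at least 9 peaks in control 1 and 2.25% in control 2. In CpG 1 1.98% had at least 4, and in CpG 2 1.11% had at least 8. Both CpG libraries lay below both control libraries, with 9 ± 0 peaks in the control (SD, n = 2) and 6 ± 2.83 with CpG (SD, n = 2). The difference of -3 had p = 0.333 in a two-sided exact permutation test, the smallest p that 2 libraries against 2 allow. It turned to 0.5 when the 13553 most significant peaks of each library were used (6, 4, 4 and 7 peaks, exact permutation p = 1), and it was -1 without CpG 1 and -5 without CpG 2. Il10 peaks covered 3269, 5663, 970 and 3912 bp, or 4466 ± 1693 bp in the control and 2441 ± 2080 bp with CpG (SD, n = 2 each, exact permutation p = 0.667), and the groups overlapped. The difference of -2025 bp was -554 and -3496 bp without CpG 1 and CpG 2, and -3222 and -828 bp without control 1 and control 2.

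The 10 regions spread from 22.2 kb before to 27.2 kb after the start of Il10, which the files place on chromosome 1 at 130947581 to 130952711 on the plus strand. Of these, 4 regions had a peak in all 4 libraries. They lay about 4.3 kb before the start, at the start itself, 6.1 kb after the start (beyond the end of the 5131 bp gene) and 18.4 kb after it. In the genome 10.1% of merged regions were in all 4 libraries, and 0.441% of named genes had at least 4 such regions. A further 2 regions, at 2.3 kb inside the gene and at 23.0 kb, had a peak in the control libraries alone, in both of them, a pattern of 8.70% of all regions. No region had a peak in the CpG libraries alone, in both of them, which 1.15% of all regions did. The regions at 1.5 kb, inside the gene, and at 26.7 kb lacked a peak only in CpG 1 (12.2% of all regions). The region 1.2 kb before the start had a peak in control 2 and CpG 2 (6.31% of all), and that 22.1 kb before it in CpG 2 alone (9.49% of all). The control-only count was 4 without CpG 2 and 0 with lists of equal length, and the count of CpG-only regions was 1 in place of 0 without CpG 1 and with lists of equal length. Coordinates are as the files give them, and the sources used here do not name their build.

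**Figure D1:**
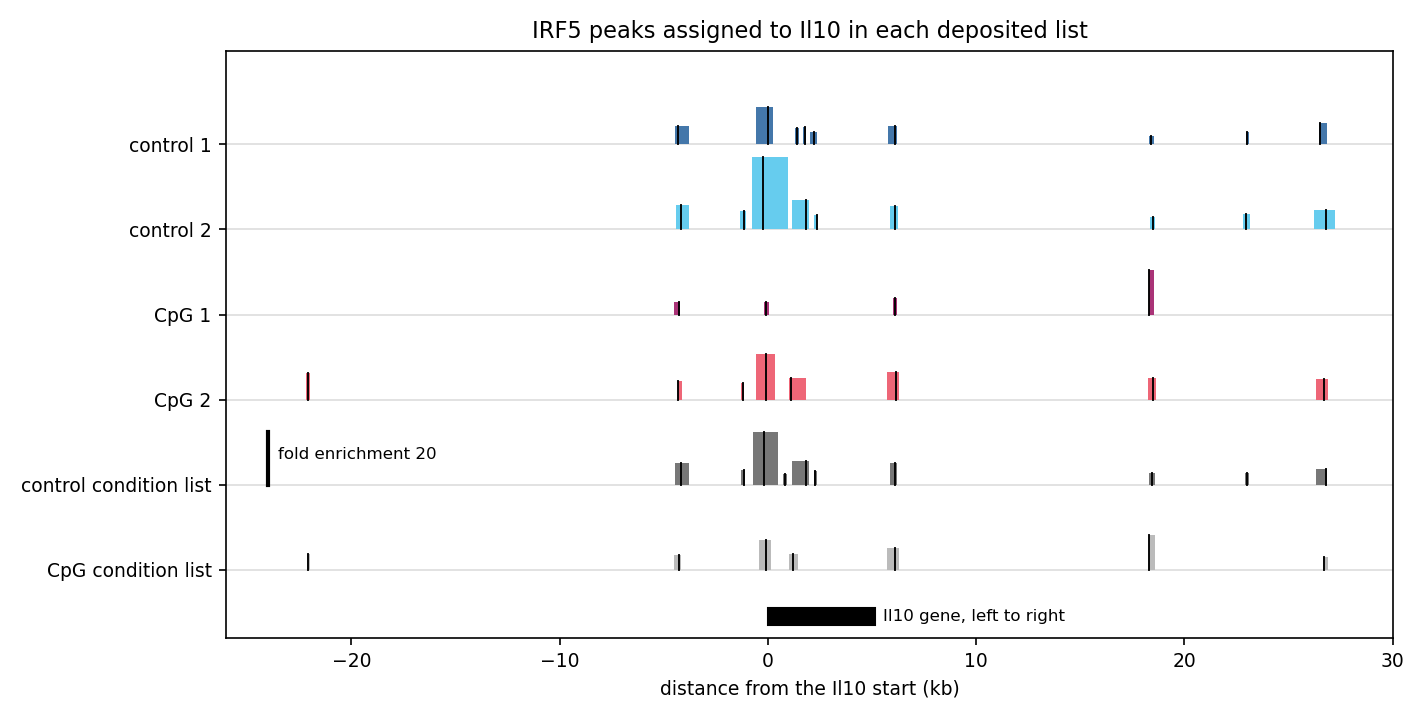
Peaks assigned to Il10 in the 4 library lists and the 2 condition lists, by distance from the Il10 start in kb. Each bar spans a peak, its height is the fold enrichment (bar at the left: 20), the black line is the summit, and the black box is the gene. The start region is the highest in control 1, control 2, CpG 2 and the control condition list, and the region 18.4 kb after the start is the highest in CpG 1 and the CpG condition list.

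The promoter region held the strongest Il10 peak in 3 of the 4 libraries and was of middling strength in CpG 1. The fold enrichment, which is the pileup of fragments at the summit over the local background as the authors' peak caller computed it, reached 14.0 and 27.2 in the control libraries 1 and 2, 4.83 in CpG 1 and 17.1 in CpG 2. These peaks lay at the 97.5, 98.8, 43.9 and 96.4 percentile of fold enrichment in their own lists. Pileups at the summits were 28, 56, 12 and 37. Fold enrichments and pileups of different libraries are not on a common scale, and they are set side by side without a test. The peaks spanned 796, 1746, 235 and 909 bp and all covered the start. Their summits lay 15 bp after the start in control 1 and 217, 92 and 90 bp before it in control 2, CpG 1 and CpG 2.

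Control 1 differed from the other libraries in the class of its start peak. Its peak at 130947016 to 130947811 is annotated as exon and 5' untranslated region, while those of control 2 (130946799 to 130948544), CpG 1 (130947393 to 130947627) and CpG 2 (130946993 to 130947901) are annotated as Promoter. Counted by class, Il10 therefore had a promoter peak in every library but control 1, as did 0.986% of named genes. Counted by peaks over its start, it had one in all 4. The peak in CpG 1 had a −log10 q of 4.25, against 26.7, 70.7 and 38.0 in control 1, control 2 and CpG 2. A smaller peak 1.2 kb before the start was in the Promoter class as well, with fold enrichments of 6.84 in control 2 and 6.20 in CpG 2. The table of RefSeq promoters used for sequences holds no entry for Il10.

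The region 4.3 kb before the start, between genes, was called in every library. Its fold enrichment was 6.77 and 9.01 in the control libraries (1 and 2), 4.73 in CpG 1 and 6.88 in CpG 2, at the 69.7, 80.3, 37.8 and 61.6 percentile of their lists. Summits of the 4 peaks fell within 157 bp of each other, between 4167 and 4324 bp before the start. This was the weakest of the 4 Il10 peaks of CpG 1 and ranked 7 of 8 by strength in CpG 2. It ranked 4 and 3 among the 9 of control 1 and control 2. The merged region spans 130943072 to 130943786.

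Apart from the peaks over its start, the peaks inside the gene were of the intron class and were found in the control libraries and CpG 2. Control 1 had 3 (fold enrichments 5.96, 6.68 and 4.55), control 2 had 2 (11.03 and 5.47) and CpG 2 had 1 (7.97). CpG 1 had none. The intron peak of control 2 at 130948723 to 130949551 was its second strongest at Il10 (88.1 percentile). Its summit lay 1822 bp after the start, close to that of 1 control 1 peak at 1790 bp, whereas the CpG 2 peak, which overlaps both, had its summit at 1114 bp. The region at 2.3 kb, seen in both control libraries alone, was weak. Its −log10 q was 3.70 in control 1 and 5.76 in control 2.

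The region 6.1 kb after the start, just beyond the end of the gene, was the most sharply placed of those called in all 4 libraries. The summits of its 4 peaks lay within 38 bp, at 6125 bp after the start in both control libraries and at 6122 and 6160 bp in CpG 1 and CpG 2. Its fold enrichment was 6.97 and 8.68 in the control libraries (1 and 2), 6.10 in CpG 1 and 10.4 in CpG 2 (71.6, 78.4, 75.2 and 86.6 percentile). It was the second strongest Il10 peak in both CpG libraries and ranked 3 and 4 in control 1 and control 2. It was also the only Il10 region that kept a peak in all 4 libraries when peaks with a −log10 q under 5 were left out.

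The region 18.4 kb after the start differed most in its standing between libraries. It was the weakest of the 9 Il10 peaks in both control libraries, with fold enrichments of 3.06 and 4.75 (1.66 and 20.4 percentile). In CpG 1 it was the strongest, with 16.9 (99.8 percentile), and in CpG 2 it ranked 4 of 8, with 7.98 (74.6 percentile). The peak of control 1 was close to the limit of its list, with a −log10 p of 5.01 against a lowest value of 5.00. With lists of equal length neither control library kept a peak in this region and both CpG libraries did. CpG 1 could not lose one, as its 13553 peaks set that length. The authors' lists of the conditions gave 4.21 for the control, the ninth of its 10 Il10 peaks, and 13.0 for CpG, the first of 7. These lists combine the same libraries and are no separate support. Summits lay 18398, 18480, 18287 and 18494 bp after the start in control 1, control 2, CpG 1 and CpG 2. The summit in the CpG condition list, at 18296 bp, was close to that of CpG 1. The CpG 1 summit lay before the first base of both control peaks (130965882 and 130965919) and inside the peak of CpG 2 (130965823 to 130966193). It was at 130965868, close to the first base of its own peak (130965859 to 130966099).

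**Figure D2:**
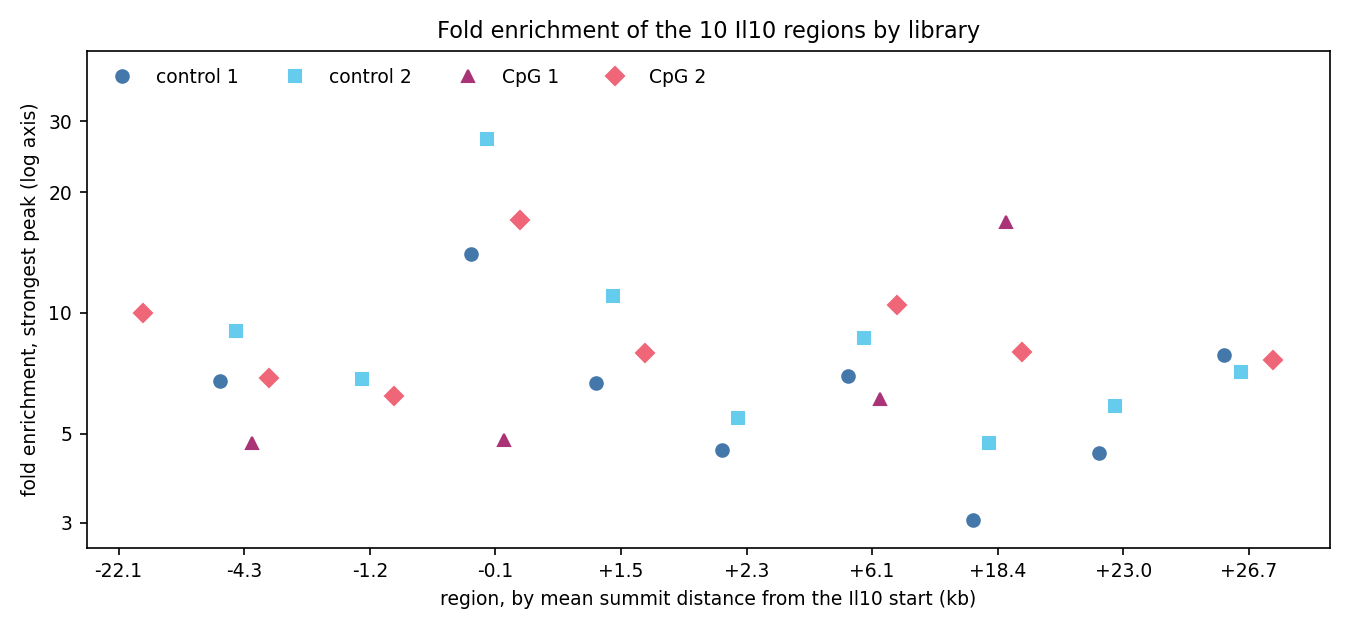
Fold enrichment (log axis) of the strongest peak of each library in the 10 Il10 regions, which are ordered by mean summit distance from the start in kb. A missing point means no peak. Values are read across regions within a library. In CpG 1 the region at 18.4 kb (16.9) lies above the start region (4.83), while in the other libraries the start region is highest.

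To compare libraries without a common scale, each region was set against the start region of the same library. For the region at 18.4 kb this ratio of fold enrichments was 0.218 and 0.175 in the control libraries (1 and 2), 3.49 in CpG 1 and 0.468 in CpG 2. Both CpG libraries were above both control libraries. The log2 ratio was -2.36 ± 0.227 in the control and 0.353 ± 2.05 with CpG (SD, n = 2 each), a difference of 2.71 (exact permutation p = 0.333, the smallest possible). It was 1.26 without CpG 1 and 4.16 without CpG 2. This ratio was chosen after the values were seen. In the genome 434 pairs of a region and the start region of the same gene had peaks in all 4 libraries. In 27.9% of those pairs the ratio was higher in both CpG libraries than in both control libraries, and in 19.6% it was lower in both, so the order seen at Il10 is a common one. The ratio of the region at 6.1 kb had the same order (0.497, 0.319, 1.26 and 0.612), and that of the region 4.3 kb before the start did not, as it was 0.483, 0.331, 0.980 and 0.403.

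The order did not hold with pileups in place of fold enrichments. The ratio of summit pileups at 18.4 kb was 0.536, 0.286, 3.17 and 0.459 in control 1, control 2, CpG 1 and CpG 2, so that CpG 2 lay between the control libraries. The denominator implied by a peak was taken as pileup plus 1 over fold enrichment. It equals the local background only if no constant was added to that background. This denominator was 5.23 (control 1) and 3.58 (control 2) at 18.4 kb, against 2.07 and 2.097 at the start. With CpG it was 2.31 (CpG 1) and 2.26 (CpG 2) at 18.4 kb, against 2.69 and 2.23 at the start. The 2.31 of CpG 1 was the lowest denominator in its list, where 25.4% of peaks lay within 0.1% of it. The medians over all peaks were 2.69, 2.72, 2.999 and 2.84. Whether the higher value in the control lists comes from their IgG library or from the control libraries was not tested. With pileups the region at 6.1 kb also overlapped between groups (0.893, 0.571, 1.42 and 0.676).

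**Figure D3:**
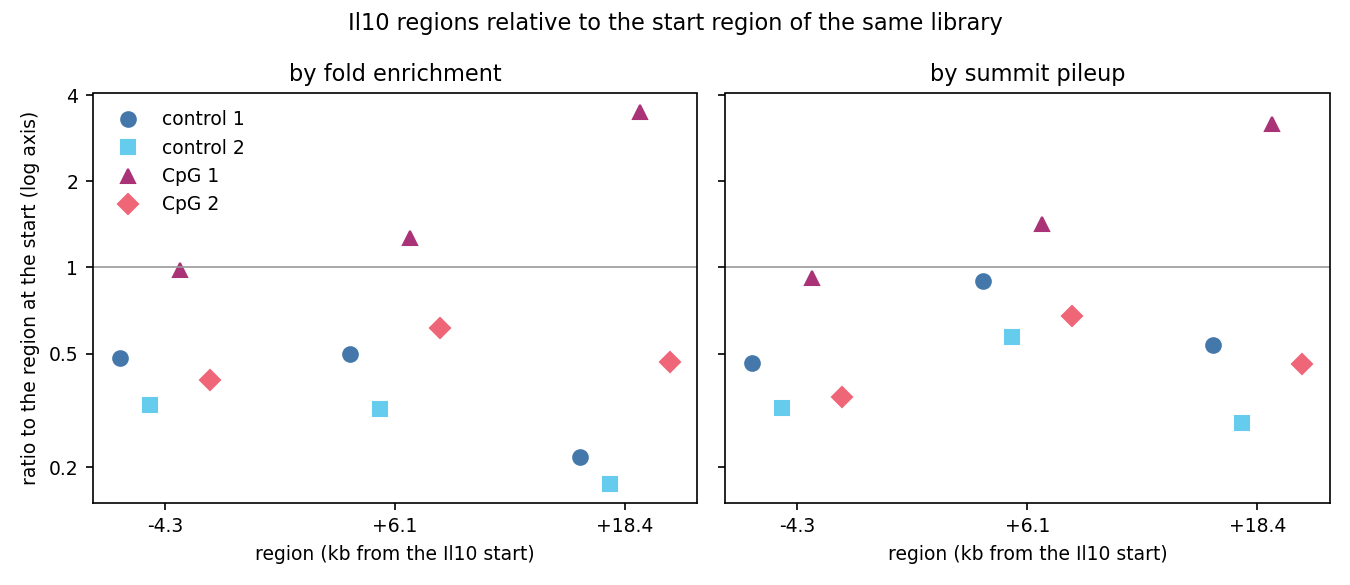
Ratio (log axis) of the 3 other Il10 regions called in all 4 libraries to the start region of the same library, by fold enrichment at the left and by summit pileup at the right. At 18.4 kb the CpG 2 value of 0.468 lies above both control values by fold enrichment, and its 0.459 lies between the control values 0.536 and 0.286 by pileup.

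Beyond 18.4 kb lay 2 further downstream regions, each with a higher fold enrichment than the region at 18.4 kb in both control libraries. That at 23.0 kb had fold enrichments of 4.48 in control 1 and 5.86 in control 2 and no CpG peak. That at 26.7 kb had 7.86, 7.12 and 7.63 in control 1, control 2 and CpG 2, at the 81.2, 65.4 and 70.9 percentile, and none in CpG 1. In control 1 it was the second strongest Il10 peak. On the upstream side the only distal peak was that of CpG 2 at 130925389 to 130925621, 22.1 kb before the start, with a fold enrichment of 9.99 (85.0 percentile), the third strongest of its 8. The CpG condition list holds this peak too, with 6.01, although CpG 1 has none there. The condition lists, for which the files do not say how libraries were combined, had 10 Il10 peaks for the control and 7 for CpG. They hold 28465 and 15249 peaks in all, so the control list is much the longer. Their Il10 peaks formed 11 regions, of which 6 were in both lists, 4 in the control list alone and 1 in the CpG list alone. The shares of all regions with these patterns were not computed for the condition lists, so the counts are not a result about Il10.

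The strongest Il10 peak of each library lay high in its list, at the 97.5, 98.8, 99.8 and 96.4 percentile in control 1, control 2, CpG 1 and CpG 2. The groups overlapped, and the difference of -0.0758 had an exact permutation p = 1. The peaks compared were not all at the same site, as that of CpG 1 lay at 18.4 kb and the others at the start. At the start region alone the percentiles were 97.5, 98.8, 43.9 and 96.4, with both CpG libraries below both control libraries. Percentiles of lists of unequal length do not measure a change. With lists of equal length those of the strongest peak were 94.7, 96.8, 99.8 and 93.1. Among 5237 other named genes with a peak in all 4 libraries, Il1b was nearest to Il10 in the percentiles of the strongest peak in the full lists (95.9, 98.8, 99.6 and 96.1, a Euclidean distance of 1.65). It encodes interleukin 1 beta. Wfdc21 (1.72), Gm11292 (2.02), Aoah (2.03), which encodes an enzyme that inactivates bacterial lipopolysaccharide, and Aff1 (2.04) followed. Il1b had 2, 5, 2 and 2 peaks.

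The genes beside Il10 had fewer peaks each. Within 250 kb of the Il10 start there were 39 and 42 peaks in the control libraries (1 and 2), 11 in CpG 1 and 34 in CpG 2, and Il10 was the nearest gene of 23.1%, 21.4%, 36.4% and 23.5% of them. Upstream lie genes of the same cytokine family. Il20 had 1, 2, 1 and 2 peaks with a top fold enrichment of 11.5, 11.03, 3.895 and 12.04, and Il19 had a single peak, in CpG 2 (4.77). Neither had a promoter peak, and Il24 was not the nearest gene of any peak. The next peak before the Il10 peaks lay 101.1, 100.6, 101.1 and 87.4 kb from the start, while the next one after them lay at 32.7, 30.3, 32.8 and 30.3 kb, nearest to Gm25549. Fcamr, the farthest upstream, had 1 peak in each CpG library (6.86 and 6.59) and none in the control libraries.

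**Figure D4:**
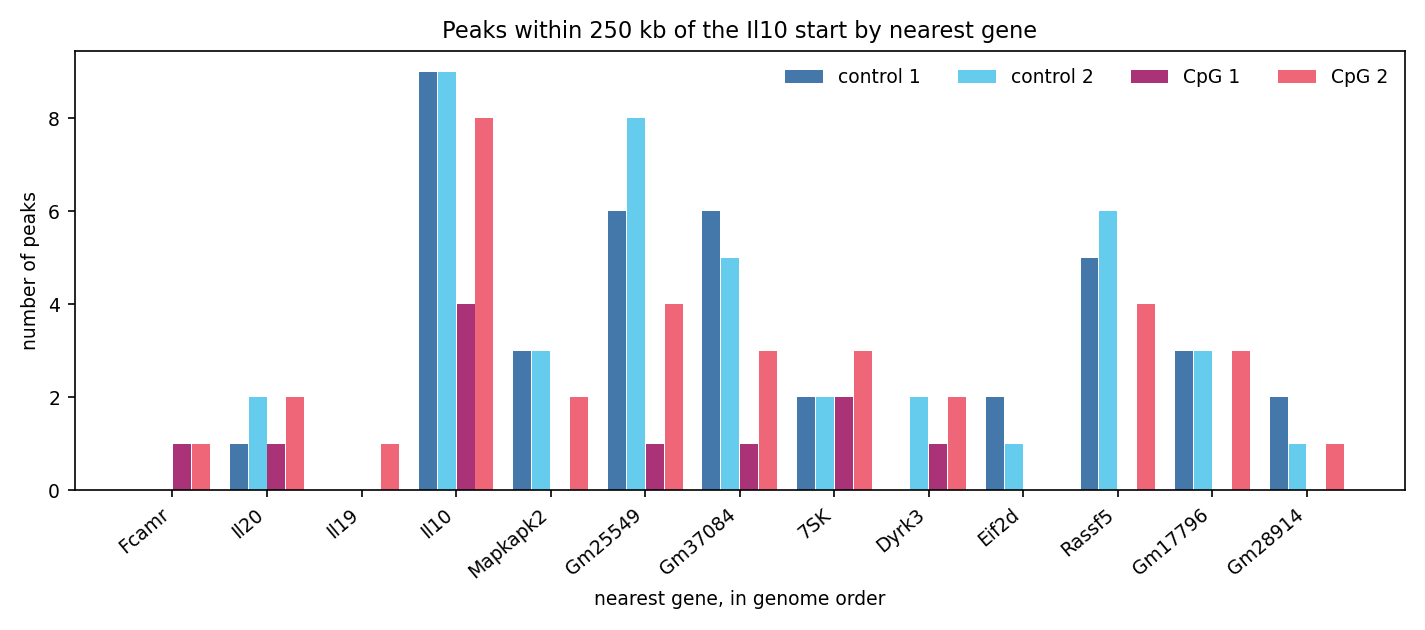
Number of peaks with a summit within 250 kb of the Il10 start, by nearest gene in genome order and by library. Il10 has 9, 9, 4 and 8 peaks, the most of any gene shown in each library.

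Downstream of Il10 lies Mapkapk2, which encodes MK2, a kinase activated by p38 that stabilises cytokine messenger RNA. It had 3, 3, 0 and 2 nearest peaks. Gm25549 (6, 8, 1 and 4 peaks) and Gm37084 (6, 5, 1 and 3) lie within the span of Mapkapk2. The peaks at the Mapkapk2 promoter had fold enrichments of 3.75 in control 1 and up to 4.804 in control 2. They were in neither CpG list, a pattern of 4.3% of all named genes. A peak covered its start in control 1 (summit 136 bp before the start) and control 2 (34 bp before it), so the sequence before the RefSeq start of the gene is shown (GRCm38.p6, chr1:131097844-131098093, minus strand, read 5′ to 3′ in the direction of the gene). The window was taken by gene name. Its coordinates differ from those of the files, which place the start at 131025563, and whether both starts are the same base was not tested. Capitals mark the match, which begins 210 bp before the start, to AANNGAAA, a core shared by sites of interferon regulatory factors, searched on both strands.

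Mapkapk2: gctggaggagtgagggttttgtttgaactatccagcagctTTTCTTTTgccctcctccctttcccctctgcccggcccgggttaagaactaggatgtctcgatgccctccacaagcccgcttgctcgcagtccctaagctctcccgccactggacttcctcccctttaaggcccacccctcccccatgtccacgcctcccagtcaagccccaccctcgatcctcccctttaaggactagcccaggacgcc

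Of 32851 RefSeq promoter windows of 250 bp, 21.3% hold AANNGAAA on either strand, so a match is common. That of Mapkapk2 held no match to TTCNNNGAA (STAT, 7.02% of windows), TGANTCA (AP-1, 6.75%) or TGACGTCA (CRE, 1.55%). The remaining neighbours were a 7SK gene (2, 2, 2 and 3 peaks, with a promoter peak in every library), Dyrk3 (0, 2, 1 and 2), Eif2d (2, 1, 0 and 0), Rassf5 (5, 6, 0 and 4), Gm17796 (3, 3, 0 and 3) and Gm28914 (2, 1, 0 and 1). Dyrk3 had a promoter peak in both CpG libraries alone (0.61% of all named genes), although control 2 had 2 peaks nearest to it.

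Among the genes through which interleukin 10 is made and acts, 8 had a promoter peak in every library. They were Socs3, Bcl3, Maf, Rela, Sp1, Crem, Map3k8 and Rps6ka5. Of 54 genes in a list of the pathway, 49 were named in the files. Promoter-class peaks were present at 26 (control 1), 32 (control 2), 14 (CpG 1) and 28 (CpG 2) of them. These are 53.1%, 65.3%, 28.6% and 57.1%, against 23.9%, 28.4%, 10.3% and 22.1% of all named genes, which include non-coding ones. The groups overlapped, at 29 ± 4.24 and 21 ± 9.90 genes (SD, n = 2 each), with a difference of -8 (exact permutation p = 0.667), -1.5 with lists of equal length, -15 without CpG 2, -5 without control 2 and -1 without CpG 1. Promoter peaks were in every library at 8 of the 49 (5.41% of named genes), in both control libraries alone at 5 (4.30%) and in both CpG libraries alone at 2 (0.610%). A peak over a start can fall outside the Promoter class, as at Il10 in control 1. A gene without a promoter peak in a library may thus still have a peak at its start there.

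Among ligands and receptors only Il10 itself, in 3 libraries, and Il10rb, a receptor chain shared with related cytokines, in CpG 2 (fold enrichment 5.30), had a promoter peak. The 7 named were Il10, Il19, Il20, Il10ra, Il10rb, Il20ra and Il20rb. Il10ra, the chain particular to the interleukin 10 receptor, was the nearest gene of 2, 4, 0 and 5 peaks outside the class. Of the signalling genes Stat3 had promoter peaks in control 1, control 2 and CpG 2 (6.26, 8.29 and 5.27), and the kinase gene Tyk2 in control 2, CpG 1 and CpG 2 (6.04, 2.78 and 5.47).

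Targets of interleukin 10 had a promoter peak at 7, 11, 3 and 7 of 13 (53.8%, 84.6%, 23.1% and 53.8%). The shares of all named genes were 23.9%, 28.4%, 10.3% and 22.1%, also lowest in CpG 1. Socs3, which encodes an inhibitor of cytokine signalling, had one in all 4 libraries (6.69, 4.56, 3.18 and 8.71) and was the nearest gene of 14, 12, 3 and 10 peaks. Bcl3, a nuclear inhibitor of NF-kB, had 4.54, 4.42, 5.22 and 7.90, while the corepressor gene Sbno2 had promoter peaks in the control libraries alone (4.46 and 4.47). Of 19 genes for transcription factors reported at Il10, 12, 13, 6 and 14 had a promoter peak (63.2%, 68.4%, 31.6% and 73.7%). Those in all 4 libraries were Maf, a direct activator of Il10 (6.16, 7.19, 5.41 and 7.51), the NF-kB subunit gene Rela (5.02, 3.55, 7.003 and 12.8), Sp1 (7.94, 9.69, 2.48 and 5.10) and Crem (4.05, 8.44, 4.34 and 8.41). Cebpd had one in the CpG libraries alone (4.37 and 8.73), although control 1 and control 2 had 3 and 2 peaks nearest to it. Among all named genes, 0.61% had promoter peaks in both CpG libraries alone and 4.3%, like Sbno2, in both control libraries alone.

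Kinases upstream of Il10 had a promoter peak at 5, 5, 3 and 3 of 6 (83.3%, 83.3%, 50% and 50%). The shares of all named genes were 23.9%, 28.4%, 10.3% and 22.1%. Map3k8, which encodes the kinase TPL2 of the ERK pathway, had 9.94, 15.3, 3.25 and 8.86, and Rps6ka5, which encodes the p38-activated kinase MSK1, had 5.92, 8.13, 3.06 and 7.77. Mapk14, which encodes p38 alpha, had promoter peaks in the CpG libraries alone (6.80 and 8.54), although control 1 and control 2 had 4 peaks each nearest to it. Mapk3, Gsk3b and Mapkapk2 had them in the control libraries alone, although CpG 2 had 1, 5 and 2 peaks nearest to these genes. Among all named genes, 4.3% had promoter peaks in both control libraries alone and 0.61% in both CpG libraries alone.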

How the data were processed

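Anti-IRF5 CUT&Tag peaks of 4 libraries were used. The submitters' processing notes name MACS2 2.1.0, BWA 0.7.12, fastp 0.20.0 and, without a version, ChIPseeker, with no role and no genome build. Each list gives the pileup at the summit, a signal deposited by the authors, whole in the library lists (100% of peaks) and scaled in the condition lists. It also gives the fold enrichment, a ratio to the local background computed by the authors, and the −log10 of a p-value and q-value deposited by the authors, whose damaged headers were read from order and values. No list had a q above its p on this scale. Continuation lines of overlong cells (281 to 1017 per list) and 12 to 17 peaks on other contigs were left out.

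From these, peaks were merged at 1 bp of overlap, and percentiles of fold enrichment were taken within each list. Conditions were compared by an exact permutation test (Python 3.11.15, scipy 1.17.1, numpy 2.4.6), with merging and tests checked on simulated data. The implied denominator, (pileup + 1) / fold enrichment, sat within 0.1% of its lowest value for 13.4% to 25.4% of peaks. Depth is unknown, and no interval for counts of peaks is possible. Named are the genes within 250 kb, Il19, Il20 and Il24, pathway members with a promoter peak in all libraries or in 1 condition alone, and the 5 genes nearest to Il10 by percentiles. Other pathway members (Il10ra, Il10rb, Tyk2, Stat3 and the named ligands and receptors) were added after their values were seen. A pathway gene that enters the counts is not reported here by name. Members and lists were chosen with earlier results of these data known. Alternatives were a −log10 q of at least 5, equal list lengths, other member rules, 50% reciprocal overlap, the condition lists, leaving out libraries and the replicate block.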

Additional observations from a re-analysis of the deposited data

How the results depend on the processing

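The number of Il10 peaks (CpG minus control, -3) changed sign with lists of equal length (0.5) and with the Promoter class alone (0.5), and ranged from -5 to -1 when a library was left out. The percentile of the strongest peak (-0.0758) changed sign with lists of equal length (0.734) and ranged from -1.81 to 1.66 without single libraries, being positive without control 2 (0.565) and without CpG 2 (1.66). Covered bases and pathway genes kept their sign under the alternatives run, at -3496 to -554 bp and -15 to -1 genes without single libraries, as did the log2 ratio at 18.4 kb at 1.26 to 4.16 (1.62 from pileups, both chosen after the data were seen). With all peaks within 50 kb of the start the differences were -6.5 peaks and -3622 bp. Bases differed by -699.5 with equal lengths and -391.5 with the Promoter class, where percentiles differed by -28.7 with control 2 as the only control library. The replicate block, which permutes within libraries of the same number, left the differences at -3, -0.0758, -2025, -8 and 2.71, with a smallest possible exact p of 0.5. Shared numbers are not known to pair the libraries.

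The 10 regions became 19 when 50% of both peaks had to overlap, and the 4 in all libraries became 1, at 18.4 kb. With a −log10 q of at least 5 they also became 1, at 6.1 kb. The 2 control-only regions became 1 with 50% overlap, 0 with the stricter q, 0 with equal lengths, 4 with the condition lists, and 2 to 4 without single libraries (4 without CpG 2). The 0 CpG-only regions became 1 with the condition lists and 1 with equal lengths (at 18.4 kb), and 0 to 1 without single libraries (1, at 22.1 kb before the start, without CpG 1). Depth is unknown, so a missing peak, above all in CpG 1, does not show absence of binding.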
